A study of Mus musculus with 9 samples.

Results

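The genes described here encode the proteasome and the proteins that cap, activate, inhibit or assemble it. They were chosen by symbol, as every gene whose symbol starts with Psma, Psmb, Psmc, Psmd, Psme, Psmf or Psmg followed by a number, and the brightest probe set of each, by mean level, was the one read. The RefSeq gene table holds 57 such symbols, 51 of protein-coding genes and 6 of pseudogenes. Of these, 49 had a probe set that names 1 gene only. Among the 49, 48 were bright enough to be tested, as were 13447 genes in all. To be tested, a gene had to lie above the 40th percentile of an array's values on 3 or more of the 9 arrays. Psmb11, the core subunit of the thymus, passed on 0 of 9 arrays and was not tested, with values between 3.90 and 4.33. Psme2, a partner of Psme1, shares its probe set with Psme2b and was not analysed here. Of the 48 genes, 46 are proteasome genes by their known role, and Psmc3ip and Psme3ip1 carry such a symbol because their proteins were found as binding partners of a subunit.

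The samples were cumulus cells, which are granulosa cells attached to the oocyte, taken from mouse females of 3 genotypes with 3 arrays each. DM females lacked the growth factor BMP15 and had a single intact copy of Gdf9 (Bmp15-/-Gdf9+/-), Bmp15-/- females lacked BMP15, and wildtype females had both genes intact, all on a B6/129 background and aged 4 to 5 months. BMP15 and GDF9 are secreted by the oocyte and act on the cumulus cells around it. Every female had been given 5 IU of equine chorionic gonadotropin, a hormone that makes follicles grow, 48 hours earlier. Each sample pooled 75 to 100 cumulus-oocyte complexes of 3 to 4 mice. The complexes were stripped of their oocytes in medium with 5 µM milrinone, a drug that keeps the oocyte from maturing. The spread within a genotype is thus that between pools of mice together with that of processing each sample. The sources used here do not say how the mutant alleles were made. From each sample 10 ng of total RNA was amplified in 2 rounds and hybridised to a 3' expression array of 45101 probe sets.

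The proteasome degrades proteins that carry chains of ubiquitin. Its core particle is a barrel of alpha and beta rings, in which 3 of the beta subunits cut peptide bonds, and interferon can replace these by inducible subunits that change the peptides shown on MHC class I. The regulatory cap consists of a base, whose ATPases unfold the substrate and feed it into the core, and a lid that removes the ubiquitin chain. Other activators can take the place of the cap, and dedicated chaperones bring core and base together. In mammalian ovaries, inhibitors of the proteasome are known to disturb the maturation of oocytes.

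Proximal promoters are shown for 5 genes that were lower in DM, with the short motifs that each holds. The genes are 1 each from the alpha ring, the beta ring, the inducible core, the lid and the activators. As they were picked by direction, they cannot link a motif to that direction. Each sequence is the 250 bases before the gene's start in RefSeq on GRCm38.p6, read 5′ to 3′ on the gene's own strand. Psma4 lies at chr9:54950609-54950858 on the plus strand, Psmb3 at chr11:97703184-97703433 on the plus strand, Psmb9 at chr17:34187331-34187580 on the minus strand, Psmd12 at chr11:107479278-107479527 on the plus strand and Psme3 at chr11:101315963-101316212 on the plus strand. Capitals mark matches, on either strand, to CGGAAG (the core recognised by ETS family factors), CCAAT (the CCAAT box), GGGCGG (the GC box), TGACNNNGC (the core of the antioxidant response element, which NFE2L1 and NFE2L2 bind) and TTCNNTTTC (a shortened interferon response element), and neighbouring matches can overlap.
Psma4: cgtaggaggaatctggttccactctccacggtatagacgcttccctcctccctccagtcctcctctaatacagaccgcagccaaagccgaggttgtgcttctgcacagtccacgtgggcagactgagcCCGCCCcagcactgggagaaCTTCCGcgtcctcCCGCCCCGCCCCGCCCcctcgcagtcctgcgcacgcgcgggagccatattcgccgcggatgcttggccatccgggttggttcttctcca
Psmb3: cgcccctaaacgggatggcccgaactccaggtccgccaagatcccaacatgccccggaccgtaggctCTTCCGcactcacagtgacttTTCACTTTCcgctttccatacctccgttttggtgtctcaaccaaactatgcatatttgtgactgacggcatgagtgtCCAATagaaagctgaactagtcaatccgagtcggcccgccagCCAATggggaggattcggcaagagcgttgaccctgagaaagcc
Psmb9: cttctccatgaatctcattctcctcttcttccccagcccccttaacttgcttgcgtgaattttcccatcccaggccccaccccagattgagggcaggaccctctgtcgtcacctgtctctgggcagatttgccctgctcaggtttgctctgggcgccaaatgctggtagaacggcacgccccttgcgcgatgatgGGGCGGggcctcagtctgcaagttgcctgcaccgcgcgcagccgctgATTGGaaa
Psmd12: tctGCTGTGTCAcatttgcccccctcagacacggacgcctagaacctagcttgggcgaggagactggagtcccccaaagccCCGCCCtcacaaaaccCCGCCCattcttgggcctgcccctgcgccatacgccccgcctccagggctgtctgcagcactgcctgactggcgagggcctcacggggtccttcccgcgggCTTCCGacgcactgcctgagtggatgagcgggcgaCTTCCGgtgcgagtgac
Psme3: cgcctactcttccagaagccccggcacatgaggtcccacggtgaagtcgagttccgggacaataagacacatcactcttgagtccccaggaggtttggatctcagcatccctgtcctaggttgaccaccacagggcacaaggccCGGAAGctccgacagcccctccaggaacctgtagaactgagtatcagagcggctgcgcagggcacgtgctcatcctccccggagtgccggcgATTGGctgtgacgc
Psma4 holds 4 GC boxes and 1 ETS core, Psmb3 holds 2 CCAAT boxes, 1 ETS core and 1 shortened interferon element, and Psmd12 holds 2 ETS cores, 2 GC boxes and 1 antioxidant core. Psme3 holds 1 ETS core and 1 CCAAT box, and Psmb9 holds 1 CCAAT box and 1 GC box. Psmb9 faces Tap1, a chain of the transporter that carries peptides to MHC class I, and their starts lie 226 bases apart on chromosome 17, at 34187330 on the minus strand for Psmb9 and 34187556 on the plus strand for Tap1.

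Over a window of 300 bases, 250 before to 50 after the start, 40 of the 48 genes had a promoter in the RefSeq table, and Psma8, Psmb1, Psmb2, Psmb7, Psmc3, Psmd3, Psmd7 and Psmg2 had none there. CGGAAG was found in 23 of the 40 (57.5%), against 18.8% of the promoters of 27025 genes of all kinds. GGGCGG was found in 23 of the 40 (57.5%), against 38.2% of all promoters, and CCAAT in 15 (37.5%) against 41.1%. TGACNNNGC was found in 6 of the 40 (15.0%), against 14.0% of all promoters, and TTCNNTTTC in 7 (17.5%) against 9.76%. Among the 27 of these genes that were lower in DM than in wildtype, described next, 16 held CGGAAG, 12 CCAAT, 16 GGGCGG, 3 TGACNNNGC and 4 TTCNNTTTC. Among the 13 that were not called, 7 held CGGAAG, 3 CCAAT, 7 GGGCGG, 3 TGACNNNGC and 3 TTCNNTTTC. These matches describe letters in a fixed window and do not show that a factor binds there.

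The question for DM against wildtype was which proteasome genes change when the oocyte makes no BMP15 and has 1 intact copy of Gdf9. Of the 48 genes, 32 were lower in DM (66.7%), 0 were higher and 16 were not called with limma at a Benjamini-Hochberg adjusted p under 0.05, and 37 had an unadjusted p under 0.05. Over all 13447 genes 28.1% were called, with 18.2% of all genes lower and 9.95% higher, and 40.1% had an unadjusted p under 0.05. The median change of the 48 genes was -0.42 on the log2 scale, a 1.34-fold fall, beside -0.06 for all genes. The 3 DM arrays lay below all 3 wildtype arrays in 38 of the 48 genes, beside 27.4% of all genes, and above them in 1, Psme4. In bulk samples such as these, fewer cells of a type and less RNA per cell cannot be told apart.

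Expression followed the order DM below Bmp15-/- below wildtype in 43 of the 48 genes by their means, an order that 34.0% of all genes (4568) showed. Taking each gene's wildtype mean as 0, the median of the 48 genes lay at -0.43, -0.29 and -0.53 on DM arrays 1 to 3, at -0.18, -0.24 and -0.24 on the Bmp15-/- arrays, and at 0.00, 0.02 and -0.02 on the wildtype arrays, whose own mean sets the 0. No mutant array reached a wildtype array in this median, and DM array 2 was the DM array closest to the Bmp15-/- arrays. Without DM array 2, 34 of the 48 genes were called lower, and leaving out other single arrays gave between 26 and 30. Wildtype array 2 and Bmp15-/- array 2 carried the most oocyte transcripts. Without both of them, an alternative chosen after the data were seen, 19 of the 48 genes were called lower and 33 had an unadjusted p under 0.05, while 16.4% of all genes were called in either direction and the median of the 48 was -0.40.

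**Figure D1:**
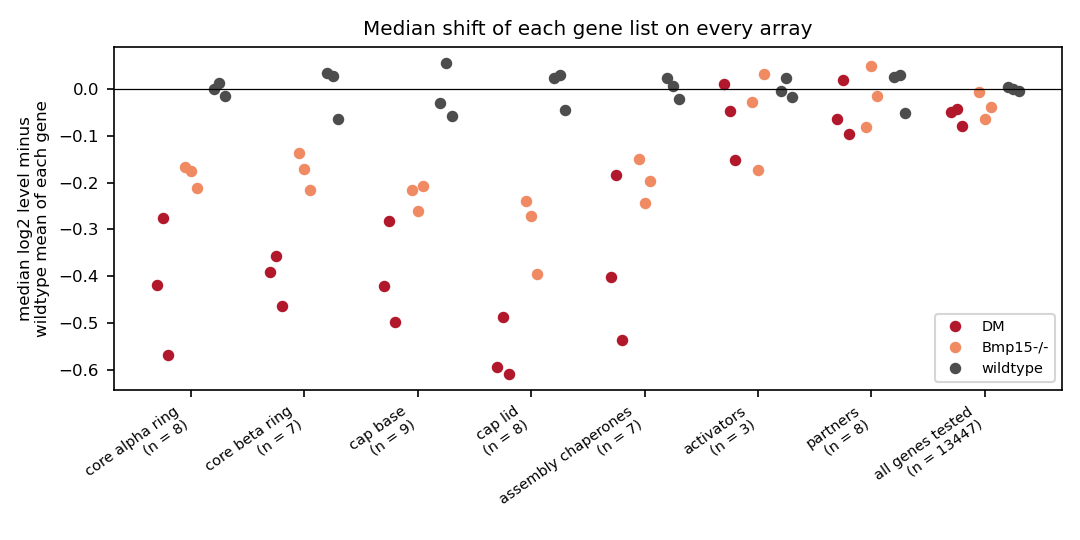
Median over the genes of each list of the log2 level minus the gene's wildtype mean, with 1 point per array and the number of tested genes in brackets; red points are DM, orange points Bmp15-/- and grey points wildtype. The rings, the cap and the assembly chaperones lie below 0 on all 6 mutant arrays, lowest in DM for the lid (-0.49 to -0.61), while activators, partners and all genes tested lie between -0.17 and 0.05.

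Signs of sample quality also differed by genotype, and their part in these results was not tested. The 3' minus 5' difference of the Gapdh control was between 0.79 and 0.95 on DM arrays, 0.66 and 0.73 on Bmp15-/- arrays and 0.52 and 0.59 on wildtype arrays (log2), while that of beta-actin lay between 1.85 and 2.12, 1.85 and 1.92, and 1.87 and 1.90. The interquartile range over probe sets was 3.16 to 3.34 in DM, 3.20 to 3.29 in Bmp15-/- and 3.37 to 3.42 in wildtype. Of 9 markers of cumulus and granulosa cells 8 were tested, and their mean level was 10.44 to 10.78 in DM, 10.62 to 10.73 in Bmp15-/- and 10.70 to 10.76 in wildtype. From this list Foxl2, a transcription factor of granulosa cells, and Inhba, a chain of activin, fell in DM (changes -0.78 and -0.89, adjusted p of 0.00947 and 0.0158), and the nuclear receptor Nr5a2 and the amino acid transporter Slc38a3 rose (changes 0.36 and 1.24, adjusted p of 0.0199 and 0.00161). Of 13 oocyte markers 10 were tested, with a mean level of 5.16 to 5.79 in DM, 5.28 to 6.67 in Bmp15-/- and 5.51 to 7.47 in wildtype. Of 12 immune markers 6 were tested, with a mean level of 5.67 to 5.88 in DM, 5.72 to 5.88 in Bmp15-/- and 5.89 to 5.94 in wildtype. Of these, H2-Ab1, a chain of MHC class II, fell by 1.63 in DM, and the others were not called, with changes in DM of 0.23 for Cd68, 0.02 for Csf1r, 0.10 for Ptprc, 0.04 for Cd74 and 0.40 for H2-Aa. The 6 markers below the brightness filter were Adgre1, Itgam, Lyz2, C1qa, Cd14 and Tyrobp. Bmp15 itself was at 5.05, 5.09 and 5.08 in DM, 5.10, 5.08 and 5.10 in Bmp15-/- and 5.10, 9.58 and 8.41 in wildtype, so wildtype array 1 sat at the mutant level of this oocyte transcript. Wildtype array 1 was also the lowest wildtype array over the 10 tested oocyte markers, whose mean level was 5.51, 7.47 and 6.32 on wildtype arrays 1 to 3. Without wildtype array 1, 26 of the 48 genes were called lower in DM.

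The alpha rings close the ends of the core, and 6 of their 8 genes fell in DM (75.0%), beside 18.2% of all genes. The median change over all 8 was -0.43. Psma4, whose product helps form the gate of the core, had log2 values of 10.60, 10.65 and 10.59 in DM samples, 10.97, 10.93 and 10.87 in Bmp15-/- samples, and 11.19, 11.18 and 11.20 in wildtype samples. The 3 genotypes did not overlap in Psma4, and its change in DM was -0.58 ± 0.07 (log2, SE of the fit, 3 arrays per genotype), a 1.49-fold fall with an adjusted p of 0.000617. Psma6 had values of 11.33, 11.64 and 11.43 in DM, 11.80, 11.76 and 11.63 in Bmp15-/- and 11.99, 12.05 and 12.00 in wildtype, a 1.46-fold fall (adjusted p = 0.00335). Psma1 had 11.07, 11.03 and 11.12 in DM, 11.34, 11.35 and 11.32 in Bmp15-/- and 11.56, 11.60 and 11.53 in wildtype, a 1.41-fold fall (adjusted p = 0.00127). In both genes the DM arrays lay below every wildtype array, and in Psma1 the Bmp15-/- arrays lay between the other two genotypes.

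Psma7 was at 10.46, 10.56 and 10.27 in DM, 10.75, 10.71 and 10.73 in Bmp15-/- and 10.94, 11.00 and 10.73 in wildtype, and fell by 0.46 on the log2 scale in DM. Psma2 was at 12.02, 12.20 and 11.87 in DM, 12.24, 12.26 and 12.26 in Bmp15-/- and 12.42, 12.44 and 12.41 in wildtype, and fell by 0.39. Psma3 was at 11.69, 11.84 and 11.61 in DM, 11.91, 11.87 and 11.82 in Bmp15-/- and 12.06, 11.96 and 11.98 in wildtype, and fell by 0.29. All DM values of these 3 alpha genes lay below all wildtype values, with adjusted p of 0.0101, 0.0125 and 0.0334. Psma3 lost its call without DM array 1 or 3, Bmp15-/- array 2 or wildtype array 1, 2 or 3 (adjusted p between 0.0505 and 0.108). Psma5 was not called, with a change of -0.15 ± 0.08 and a 95% interval of -0.32 to 0.03, although its DM arrays lay below its wildtype arrays. Psma8, a ring subunit known from the testis, ranged from 6.74 to 7.85 in DM and from 7.47 to 7.74 in wildtype, and its change of -0.20 ± 0.25 was within that spread.

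The beta rings hold the active sites, and 6 of their 7 genes fell in DM (85.7%), beside 18.2% of all genes. Their median change was -0.41. Psmb5, the chymotrypsin-like subunit, had log2 values of 10.31, 10.49 and 9.96 in DM samples, 10.66, 10.46 and 10.56 in Bmp15-/- samples, and 10.92, 10.88 and 10.73 in wildtype samples, a 1.50-fold fall in DM (adjusted p = 0.0103). Psmb6, the caspase-like subunit, was at 11.67, 11.63 and 11.67 in DM, 11.90, 11.81 and 11.82 in Bmp15-/- and 11.93, 12.04 and 11.97 in wildtype, a 1.25-fold fall (adjusted p = 0.0116). Psmb7, the trypsin-like subunit, was at 12.19, 12.32 and 11.99 in DM, 12.45, 12.36 and 12.27 in Bmp15-/- and 12.44, 12.28 and 12.43 in wildtype and was not called, with a change of -0.21 ± 0.10 and an interval of -0.45 to 0.02. Thus DM and wildtype arrays were apart in 2 of the 3 genes for constitutive active sites and overlapped in Psmb7.

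The other beta genes encode subunits that do not cut. Psmb3 was at 11.41, 11.63 and 11.52 in DM, 11.93, 11.95 and 11.93 in Bmp15-/- and 12.14, 12.29 and 12.02 in wildtype, a 1.55-fold fall in DM against wildtype (adjusted p = 0.00146). Its Bmp15-/- arrays lay within 0.02 of each other and above all DM arrays. By the brightest probe sets, Psmb3 was the single gene of the 48 that also fell in DM against Bmp15-/-, as given below. Psmb2 was at 9.66, 9.75 and 9.47 in DM, 10.05, 10.01 and 9.95 in Bmp15-/- and 10.31, 10.23 and 10.14 in wildtype, a 1.52-fold fall (adjusted p = 0.00185), with the 3 genotypes apart. Psmb1 was at 11.37, 11.38 and 11.30 in DM, 11.63, 11.61 and 11.54 in Bmp15-/- and 11.80, 11.79 and 11.70 in wildtype, a 1.33-fold fall (adjusted p = 0.00386). Psmb4 was at 11.57, 11.49 and 11.26 in DM, 11.64, 11.64 and 11.69 in Bmp15-/- and 11.73, 11.75 and 11.69 in wildtype, a 1.22-fold fall (adjusted p = 0.0485) that was lost without DM array 2 or 3, Bmp15-/- array 1, 2 or 3 or wildtype array 1, 2 or 3 (adjusted p between 0.055 and 0.124). In the fit over all probe sets given below, a second Psmb4 set fell by 0.55 in DM (adjusted p = 0.00362). The brightest Psmb4 set was not called in that fit (adjusted p = 0.0564), nor were the further sets of Psmb1 (changes -0.25 and -0.06). Over both rings, 12 of 15 genes fell in DM (80.0%), beside 18.2% of all genes.

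**Figure D2:**
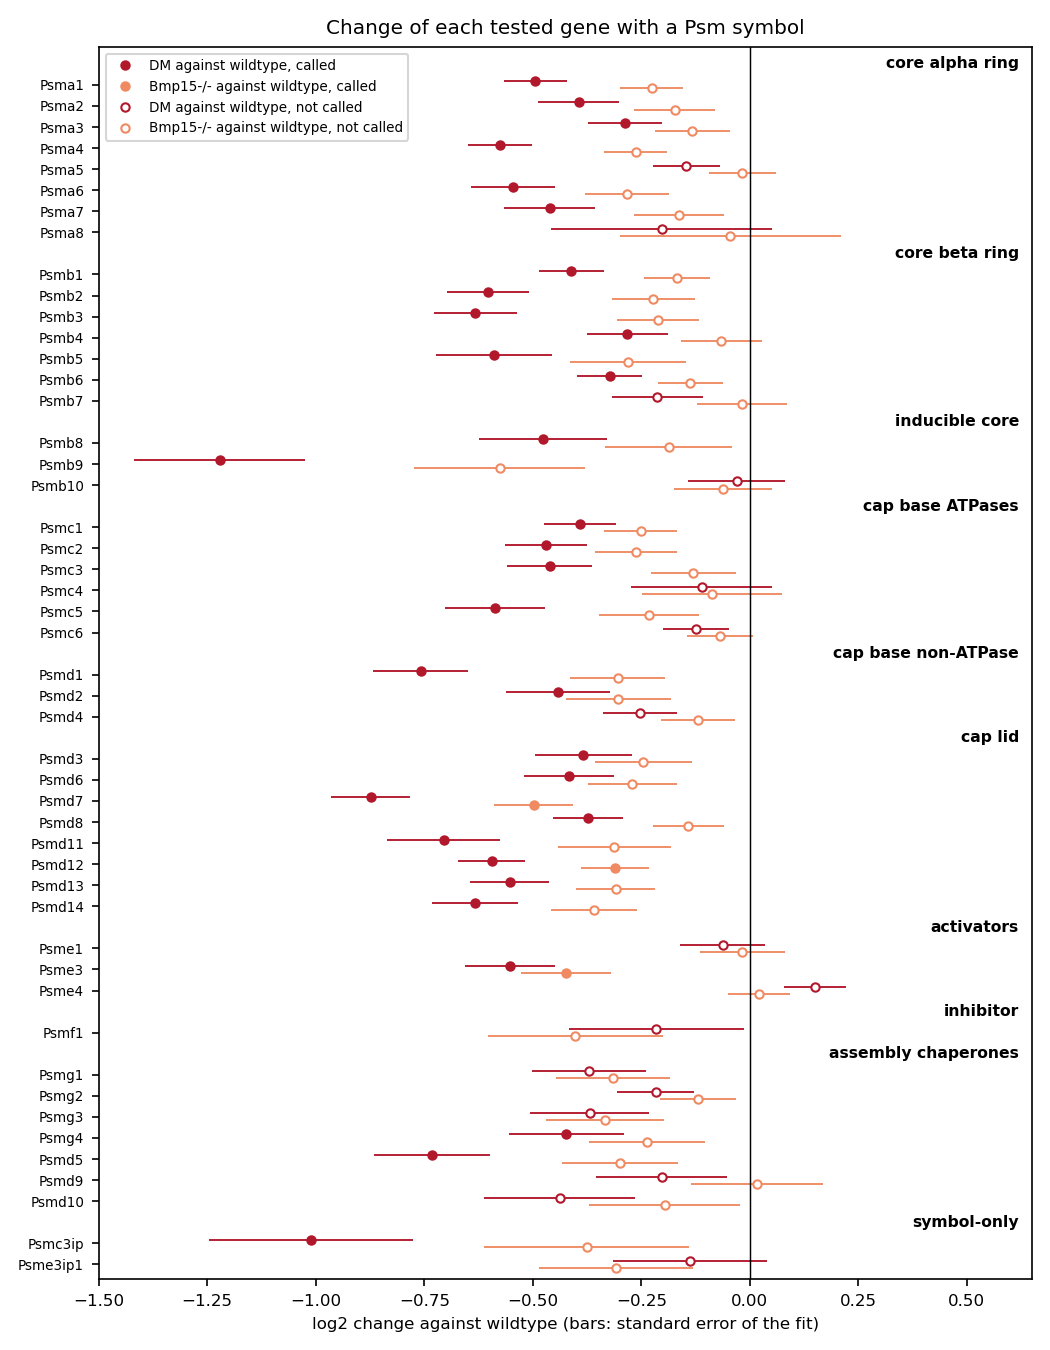
Log2 change against wildtype of each of the 48 tested genes in DM (red) and in Bmp15-/- (orange), grouped by role, with the standard error of the fit as bars (3 arrays per genotype); filled points passed an adjusted p of 0.05. In DM 32 genes are filled, all left of 0 and with the 8 lid genes shown among them, while 3 are filled in Bmp15-/- (Psmd7, Psmd12 and Psme3).

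Inducible core genes did not move alike. Psmb9, which replaces the caspase-like subunit in the immunoproteasome, showed the largest fall of the 48 genes in DM, with log2 values of 5.96, 6.20 and 5.57 in DM samples, 6.75, 6.26 and 6.65 in Bmp15-/- samples, and 7.27, 6.82 and 7.30 in wildtype samples. Its DM arrays lay below all others, its change was -1.22 ± 0.20, a 2.33-fold fall, and its adjusted p was 0.00209. These are low levels on the array, and the summary used by the authors compresses changes of dim transcripts. Psmb8, which replaces the chymotrypsin-like subunit, was at 6.83, 6.88 and 7.03 in DM, 7.42, 6.91 and 7.29 in Bmp15-/- and 7.59, 7.19 and 7.40 in wildtype, a 1.39-fold fall (adjusted p = 0.0379). The fall of Psmb8 was lost without DM array 1 or 2, Bmp15-/- array 3 or wildtype array 1 or 3 (adjusted p between 0.0522 and 0.13), and in Bmp15-/- its arrays overlapped both other genotypes. Psmb10, which replaces the trypsin-like subunit, was at 7.89, 7.81 and 7.52 in DM, 7.80, 7.56 and 7.76 in Bmp15-/- and 7.77, 7.77 and 7.77 in wildtype, with a change of -0.03 ± 0.11 in DM and an interval of -0.28 to 0.22.

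Among 7 tested of 8 listed genes of interferon signalling and antigen presentation, 3 fell and 1 rose in DM, beside 18.2% and 9.95% of all genes. In Bmp15-/- 1 fell and 1 rose, beside 5.78% and 3.29% of all genes. Nlrc5, the transactivator of MHC class I genes, was at 7.14, 7.89 and 7.47 in DM, 6.99, 7.18 and 7.07 in Bmp15-/- and 9.03, 8.69 and 9.02 in wildtype, a 2.66-fold fall in DM (adjusted p = 0.000591) and a 3.56-fold fall in Bmp15-/- (adjusted p = 0.000621). Tap1, the neighbour of Psmb9, was at 6.98, 6.93 and 7.01 in DM, 7.42, 7.25 and 7.37 in Bmp15-/- and 7.33, 7.31 and 7.44 in wildtype, and fell by 0.39 on the log2 scale in DM against wildtype (adjusted p = 0.0081) and fell by 0.38 in DM against Bmp15-/- (adjusted p = 0.0438). Its Bmp15-/- arrays overlapped the wildtype arrays, with a change of -0.01 ± 0.08. B2m, the light chain of MHC class I, fell by 0.42 in DM (adjusted p = 0.0335). Irf1, a transcription factor of the interferon response, rose 1.65-fold in DM (adjusted p = 0.0231) and 1.81-fold in Bmp15-/- (adjusted p = 0.0286), with values of 9.56, 8.96 and 9.72 in DM, 9.63, 9.65 and 9.36 in Bmp15-/- and 8.96, 8.54 and 8.57 in wildtype. Its DM array 2 overlapped the wildtype arrays.

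**Figure D3:**
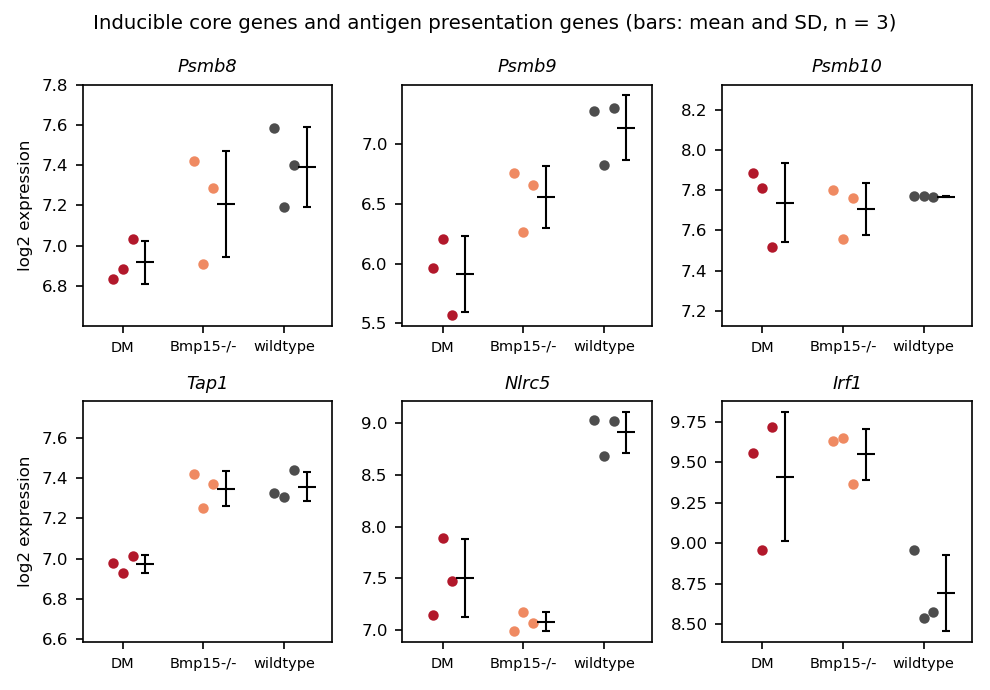
Log2 expression of the inducible core genes Psmb8, Psmb9 and Psmb10 and of Tap1, Nlrc5 and Irf1, with 1 point per array for DM, Bmp15-/- and wildtype from left to right and bars for the mean and SD of 3 arrays. Psmb9 lies lowest in DM, Psmb10 overlaps in all genotypes, Nlrc5 is lower and Irf1 mostly higher in both mutants; the vertical axes differ and do not start at 0.

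In the base of the cap, 6 of 9 genes fell in DM (66.7%), beside 18.2% of all genes, with a median change of -0.44. Of the 6 ATPase genes, 4 fell. Psmc5 was at 8.77, 9.10 and 8.69 in DM, 9.16, 9.16 and 9.30 in Bmp15-/- and 9.52, 9.45 and 9.36 in wildtype, a 1.50-fold fall (adjusted p = 0.00542). Psmc2 was at 10.70, 10.99 and 10.77 in DM, 11.08, 10.98 and 11.02 in Bmp15-/- and 11.27, 11.37 and 11.23 in wildtype, a 1.39-fold fall (adjusted p = 0.00598). Both Psmc5 and Psmc2 had every DM array below every wildtype array, while DM array 2 reached the Bmp15-/- range in Psmc2. Psmc3, whose tail docks into the alpha ring, was at 11.08, 11.05 and 10.79 in DM, 11.41, 11.25 and 11.25 in Bmp15-/- and 11.47, 11.43 and 11.41 in wildtype, a 1.38-fold fall (adjusted p = 0.00772). Psmc1 was at 10.22, 10.37 and 10.15 in DM, 10.38, 10.38 and 10.40 in Bmp15-/- and 10.58, 10.70 and 10.65 in wildtype, a 1.31-fold fall (adjusted p = 0.008). Psmc4 and Psmc6 were not called, with changes of -0.11 ± 0.16 and -0.12 ± 0.08 and intervals of -0.47 to 0.25 and -0.30 to 0.05.

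Of the 3 base genes that are not ATPases, Psmd1, a scaffold of the base, was at 9.98, 9.91 and 9.65 in DM, 10.29, 10.32 and 10.30 in Bmp15-/- and 10.55, 10.77 and 10.50 in wildtype, a 1.69-fold fall in DM (adjusted p = 0.0012) with the 3 genotypes apart. Psmd2, the docking site for shuttle proteins that bring in substrates, was at 10.19, 10.59 and 10.31 in DM, 10.63, 10.54 and 10.35 in Bmp15-/- and 10.73, 10.89 and 10.80 in wildtype, a 1.36-fold fall (adjusted p = 0.0227) that was lost without DM array 1 or 3 or wildtype array 2 or 3 (adjusted p between 0.0603 and 0.0784). Psmd4, a receptor for ubiquitin chains, was at 10.32, 10.19 and 10.14 in DM, 10.45, 10.34 and 10.26 in Bmp15-/- and 10.44, 10.49 and 10.48 in wildtype. All its DM arrays lay below its wildtype arrays, and its change of -0.25 ± 0.08 just missed the threshold, with an adjusted p of 0.0508.

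All 8 lid genes with a Psm symbol fell in DM (100.0%), beside 18.2% of all genes, with a median change of -0.57, a 1.49-fold fall. In all 8 the DM arrays lay below the wildtype arrays, beside 27.4% of all genes. Sem1, the smallest lid subunit, carries another symbol and was not called (change -0.07 ± 0.08). Psmd7, which forms a pair with the lid's deubiquitinase, had log2 values of 7.98, 7.98 and 7.81 in DM samples, 8.37, 8.37 and 8.16 in Bmp15-/- samples, and 8.82, 8.82 and 8.75 in wildtype samples. The 3 genotypes were apart in Psmd7, and it fell 1.83-fold in DM (change -0.87 ± 0.09, adjusted p = 0.00024). Psmd14, that deubiquitinase, was at 11.00, 11.17 and 10.95 in DM, 11.36, 11.42 and 11.18 in Bmp15-/- and 11.75, 11.70 and 11.58 in wildtype, a 1.55-fold fall (adjusted p = 0.0018). Psmd11, which bridges lid, base and core, was at 9.88, 10.18 and 9.92 in DM, 10.43, 10.55 and 10.17 in Bmp15-/- and 10.57, 10.86 and 10.65 in wildtype, a 1.63-fold fall (adjusted p = 0.00397). Psmd12 was at 10.22, 10.22 and 10.14 in DM, 10.50, 10.50 and 10.44 in Bmp15-/- and 10.88, 10.74 and 10.75 in wildtype, a 1.51-fold fall (adjusted p = 0.000763), again with the genotypes apart.

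The remaining lid genes encode further structural subunits. Psmd13 was at 8.72, 8.87 and 8.76 in DM, 9.13, 9.06 and 8.90 in Bmp15-/- and 9.37, 9.40 and 9.25 in wildtype, a 1.47-fold fall in DM (adjusted p = 0.00236). Psmd8 was at 10.001, 10.05 and 9.84 in DM, 10.23, 10.19 and 10.17 in Bmp15-/- and 10.31, 10.37 and 10.33 in wildtype, a 1.29-fold fall (adjusted p = 0.00877). In both Psmd13 and Psmd8 the 3 genotypes were apart. Psmd6 was at 11.99, 12.34 and 12.09 in DM, 12.35, 12.29 and 12.21 in Bmp15-/- and 12.58, 12.60 and 12.48 in wildtype, a 1.33-fold fall (adjusted p = 0.0157) that was lost without DM array 1 or wildtype array 1 or 2 (adjusted p between 0.0523 and 0.0558). Psmd3 was at 9.06, 9.27 and 8.94 in DM, 9.37, 9.08 and 9.23 in Bmp15-/- and 9.48, 9.39 and 9.55 in wildtype, a 1.30-fold fall (adjusted p = 0.0295) that was lost without DM array 1 or 3 or wildtype array 1 or 3 (adjusted p between 0.0764 and 0.0965). In these last 2 genes a DM array lay above the lowest Bmp15-/- array.

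Activators differed from each other. Psme3, the activator of the nucleus, had log2 values of 10.01, 10.16 and 10.33 in DM samples, 10.45, 10.23 and 10.22 in Bmp15-/- samples, and 10.72, 10.74 and 10.71 in wildtype samples. The mutants overlapped each other and lay below wildtype, and the fall was 1.47-fold in DM (change -0.55 ± 0.10, adjusted p = 0.00418) and 1.34-fold in Bmp15-/-. Psme1, a subunit of the interferon-inducible activator, was at 10.56, 10.50 and 10.40 in DM, 10.52, 10.38 and 10.69 in Bmp15-/- and 10.54, 10.59 and 10.51 in wildtype, with a change of -0.06 ± 0.10 in DM and an interval of -0.28 to 0.16. Psme4, an activator known for its role in spermatogenesis and DNA repair, was at 10.32, 10.32 and 10.29 in DM, 10.14, 10.21 and 10.19 in Bmp15-/- and 10.14, 10.18 and 10.15 in wildtype. Its DM arrays all lay above the others, but the change of 0.15 ± 0.07 was not called (adjusted p = 0.151), except after quantile normalization, where it was 0.23 (adjusted p = 0.0404). Another Psme4 probe set had a change of -0.44 in DM (adjusted p = 0.0213) and yet another of 1.16 (adjusted p = 0.0213), so the direction of Psme4 depended on the probe set.

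**Figure D4:**
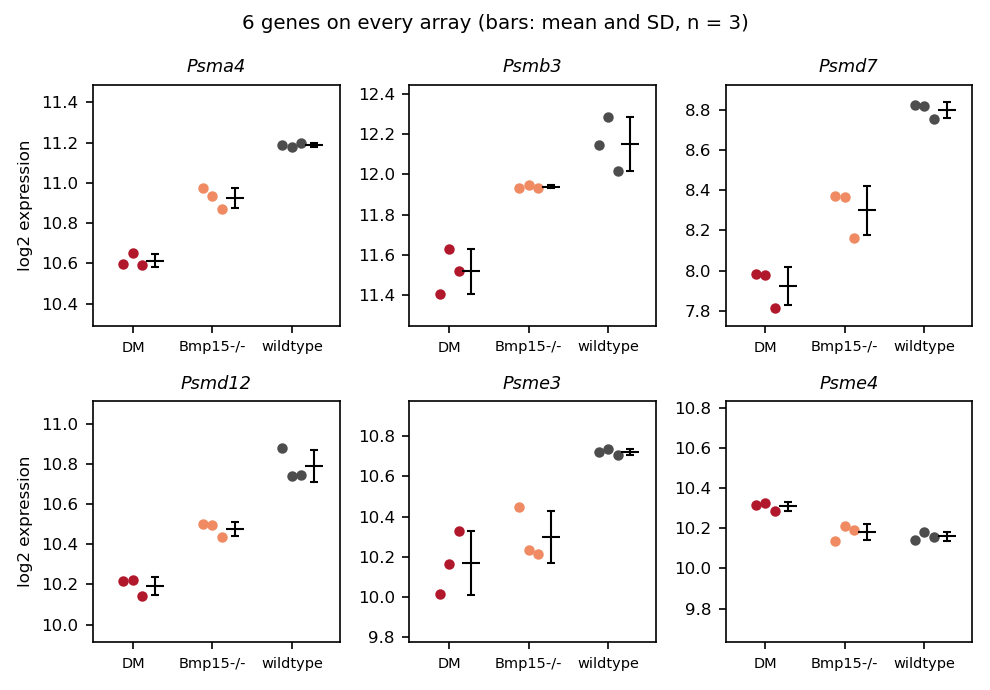
Log2 expression of 6 genes on every array, for DM, Bmp15-/- and wildtype from left to right, with bars for the mean and SD of 3 arrays; the vertical axes differ and do not start at 0. Psma4, Psmb3, Psmd7 and Psmd12 step down with the genotypes apart, Psme3 is low in both mutants, and Psme4 is highest in DM.

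Among the 7 genes of the assembly chaperones, 2 fell in DM (28.6%) and 6 had an unadjusted p under 0.05, beside 18.2% and 40.1% of all genes, with a median change of -0.37. Psmd5, a chaperone of the base, was at 8.01, 8.43 and 8.23 in DM, 8.84, 8.71 and 8.41 in Bmp15-/- and 8.96, 8.97 and 8.93 in wildtype, a 1.66-fold fall (adjusted p = 0.00384). Psmg4, a chaperone of the alpha ring, was at 7.46, 7.71 and 7.24 in DM, 7.68, 7.59 and 7.71 in Bmp15-/- and 8.07, 7.90 and 7.71 in wildtype, a 1.34-fold fall (adjusted p = 0.0405). DM array 2 overlapped wildtype array 3 in Psmg4, and its call was lost without DM array 1 or 3, Bmp15-/- array 1, 2 or 3 or wildtype array 1 or 2 (adjusted p between 0.0553 and 0.138). The alpha ring chaperones Psmg1, Psmg2 and Psmg3 had changes of -0.37, -0.22 and -0.37, with adjusted p of 0.0623, 0.0946 and 0.0712. The base chaperones Psmd9 and Psmd10 had changes of -0.20 and -0.44, with adjusted p of 0.35 and 0.0909. Psmf1, an inhibitor of the core in the test tube, was at 7.32, 8.01 and 7.03 in DM, 7.22, 7.26 and 7.32 in Bmp15-/- and 7.65, 7.68 and 7.68 in wildtype. DM array 2 was the highest of all 9 arrays in Psmf1 and the other 2 DM arrays lay below wildtype. The change of -0.22 ± 0.20 was not called with that array, and was -0.49 without it (adjusted p = 0.00753).

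Of the 2 genes that share only the symbol, Psmc3ip, a factor of homologous recombination in meiosis, was at 8.79, 9.77 and 9.08 in DM, 9.73, 10.07 and 9.74 in Bmp15-/- and 10.28, 10.46 and 9.93 in wildtype, a 2.02-fold fall in DM (adjusted p = 0.0119). Psme3ip1 was at 7.98, 8.66 and 8.08 in DM, 8.29, 8.09 and 7.84 in Bmp15-/- and 8.42, 8.34 and 8.38 in wildtype and was not called, with a change of -0.14 ± 0.18. Without these 2, 31 of 46 proteasome genes fell in DM (67.4%), beside 18.2% of all genes, with the same median of -0.42.

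How often genes were called depended on their level, so the 48 genes were also set beside genes of like mean level. Between log2 levels of 9 and 10, 5 of 6 genes were called lower in DM, beside 27.8% of all genes in that band, the highest share of any band. Between 10 and 11, and again between 11 and 12, 10 of 13 were lower, beside 25.5% and 23.9% of all genes. Among the 13 genes with a mean level between 6 and 9, 5 were lower (1 of 2, 2 of 6 and 2 of 5 in successive bands), beside 12.4% to 25.2% of all genes.

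**Figure D5:**
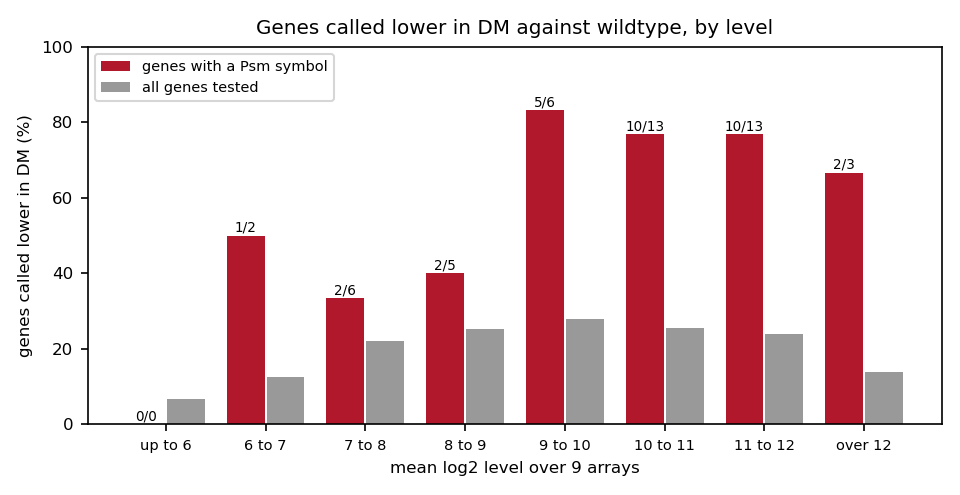
Share of genes called lower in DM against wildtype, in percent, by mean log2 level over the 9 arrays; red bars are the genes with a Psm symbol, with their counts, and grey bars all genes tested. From level 9 upward at least 2 of 3 of the genes with a Psm symbol are lower in each band, beside at most 27.8% of all genes.

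Of 10 listed genes that work beside the proteasome but carry other symbols, 8 were tested. In DM 2 fell (25.0%), 1 rose and 5 were not called, shares near the 18.2% lower and 9.95% higher of all genes, and their median change was -0.05. Uchl5, a deubiquitinase of the cap, was at 10.27, 10.18 and 10.20 in DM, 10.73, 10.63 and 10.52 in Bmp15-/- and 10.82, 11.00 and 10.83 in wildtype, a 1.59-fold fall in DM (adjusted p = 0.000845), and it also fell in DM against Bmp15-/- (change -0.41 ± 0.09, adjusted p = 0.0438). Pomp, the maturation factor of the core, was at 10.82, 10.70 and 10.49 in DM, 10.89, 10.83 and 10.87 in Bmp15-/- and 11.05, 11.15 and 11.16 in wildtype, a 1.37-fold fall (adjusted p = 0.00813). Txnl1, a thioredoxin-like protein of the cap, rose 1.24-fold in DM (adjusted p = 0.0202), with values of 12.58, 12.63 and 12.45 in DM, 12.39, 12.49 and 12.49 in Bmp15-/- and 12.28, 12.26 and 12.18 in wildtype.

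Of 4 listed genes of transcriptional control 3 were tested, and Ddi2 had no probe set that names 1 gene only. Those tested were Nfe2l1, the factor that raises proteasome genes when the proteasome is blocked, its relative Nfe2l2 and Ngly1, an enzyme that processes NFE2L1. Their mRNA was measured, not the activity of the proteins. None of the 3 was called with limma in any comparison, with changes in DM of -0.09 ± 0.10, -0.02 ± 0.14 and 0.10 ± 0.10, and 0 had an unadjusted p under 0.05. Of 15 listed genes of ubiquitin supply and shuttling 9 were tested, and 2 fell in DM (22.2%), a share near the 18.2% of all genes. These were Vcp, an ATPase that extracts ubiquitinated proteins (a 1.30-fold fall, adjusted p = 0.00775), and the shuttle Ubqln1 (a 1.33-fold fall, adjusted p = 0.0372). Rad23b, another shuttle, rose 1.28-fold in Bmp15-/- (adjusted p = 0.0392) and fell 1.39-fold in DM against Bmp15-/- (adjusted p = 0.0268), with values of 10.81, 11.06 and 10.99 in DM, 11.42, 11.46 and 11.40 in Bmp15-/- and 10.97, 11.11 and 11.12 in wildtype.

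In Bmp15-/- against wildtype, which asked about the loss of BMP15 with both copies of Gdf9 present, 3 of the 48 genes were lower (6.25%), 0 were higher and 18 had an unadjusted p under 0.05 with limma. Over all genes 26.4% had an unadjusted p under 0.05 and 9.07% were called with 5.78% lower and 3.29% higher, so the share of these genes that was called lower was near that of all genes. The median change of the 48 was -0.23, beside -0.04 for all genes, and the Bmp15-/- arrays lay below all wildtype arrays in 32 of the 48, beside 23.4% of all genes. Psmd7 had a change of -0.50 ± 0.09 (adjusted p = 0.0125), Psme3 of -0.42 ± 0.10 (adjusted p = 0.0355) and Psmd12 of -0.31 ± 0.08 (adjusted p = 0.039). Psmd7 lost its call without wildtype array 2 (adjusted p = 0.0506), Psme3 without Bmp15-/- array 2 or 3 or wildtype array 1, 2 or 3 (adjusted p between 0.0946 and 0.122), and Psmd12 without Bmp15-/- array 1, 2 or 3 or wildtype array 1, 2 or 3 (adjusted p between 0.0724 and 0.127). Without wildtype array 2 the count was 0, and without DM array 2, which enters through the shared estimate of the spread, it was 6. With wildtype array 2 and Bmp15-/- array 2 both left out it was also 0, with 6 genes at an unadjusted p under 0.05.

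By role, the median change in Bmp15-/- was -0.17 in the core rings, -0.23 in the base, -0.31 in the lid and -0.24 in the assembly chaperones. In the core rings 0 of 15 genes passed and 4 had an unadjusted p under 0.05, and in the lid 2 of 8 passed and 6 had an unadjusted p under 0.05. Over all genes 5.78% were called lower and 26.4% had an unadjusted p under 0.05. The share of core ring genes with such a p was thus near that of all genes. Psmb9 had a change of -0.58 ± 0.20 and its arrays lay below wildtype, but its adjusted p was 0.0989. Psma4 and Psmd14 had changes of -0.26 ± 0.07 and -0.36 ± 0.10, just outside the threshold with adjusted p of 0.0531 and 0.0525. The 3 genes called in Bmp15-/- were also called lower in DM, and the other 29 called in DM were not called in Bmp15-/-, which is no test of a difference between the mutants. Both comparisons use the same wildtype arrays.

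DM against Bmp15-/-, in which the genotypes differ by 1 copy of Gdf9, tests that difference directly. Of the 48 genes 1 was lower (2.08%), 0 were higher and 23 had an unadjusted p under 0.05 with limma, while 3.25% of all genes were called with 1.61% lower and 1.64% higher, and 19.9% had an unadjusted p under 0.05. The median change of the 48 was -0.22, beside -0.03 for all genes, and the DM arrays lay below all Bmp15-/- arrays in 20 of the 48, beside 12.5% of all genes. The gene called was Psmb3, with means of 11.52 ± 0.11 in DM and 11.94 ± 0.01 in Bmp15-/- (SD, n = 3 each), a change of -0.42 ± 0.09 and a limma adjusted p of 0.0469. Psmb3 lost its call without DM array 1 or 3, Bmp15-/- array 1, 2 or 3 or wildtype array 1, 2 or 3 (adjusted p between 0.0583 and 0.144), and without DM array 2 there were 5 genes called. Psma4, Psmd1 and Psmd7 had changes of -0.31 ± 0.07, -0.45 ± 0.11 and -0.38 ± 0.09, with adjusted p of 0.0528, 0.0582 and 0.059. For Psme3, low in both mutants, the interval of the difference was -0.36 to 0.10, and for Psmb10 it was -0.22 to 0.28.

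A second look came from other probe sets of the same genes, in a fit over all probe sets that was chosen after the data were seen. Of 39 further tested probe sets in 23 of the genes, 17 were lower and 2 were higher in DM, beside 18.1% lower and 8.34% higher of the 23735 probe sets of that fit. Of the 24 whose gene was called lower by its brightest probe set, 11 were called lower too, 19 had a negative and 5 a positive change. Psmb3 had a change of -0.94 (adjusted p = 0.000484), Psmd11 of -1.18 (adjusted p = 0.000343), -1.08 and -0.56 in 3 of its sets, and Psme3 of -0.90 (adjusted p = 0.00326). The other 3 sets of Psmd11, with changes of 0.11, -0.03 and -0.05, the other set of Psme3 (-0.08) and the second set of Psmd7 (-0.0019, adjusted p = 0.99) were not called. Psmc2 had 1 set with a change of -0.64 (adjusted p = 0.00339) and another of 0.37 (adjusted p = 0.0368). In Bmp15-/- 2 of the 39 were lower and 2 higher, beside 5.24% and 2.37% of the probe sets of that fit. The lower sets belong to Psmd11 (-0.59, adjusted p = 0.0258) and Psmd9 (-1.32, adjusted p = 0.0499). The higher sets belong to Psmd11 (0.43, adjusted p = 0.0314) and Psme4 (1.33, adjusted p = 0.032), so Psmd11 was called in both directions. The 3 further sets of genes called lower in Bmp15-/- were not called lower, and 1 of them had a negative change. In DM against Bmp15-/- 2 of the 39 were lower and 0 higher. The share over all probe sets was not computed for this comparison, and in the main fit 1.61% of all genes were lower and 1.64% higher. The 2 sets belong to Psmb3 (-0.58, adjusted p = 0.0307) and Psmd11 (-0.59, adjusted p = 0.0465). In the fit over all probe sets the brightest sets of these genes were not called there (adjusted p of 0.0596 and 0.154).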

How the data were processed

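The authors deposited 1 log2 value for each probe set on 9 Affymetrix arrays, 3 per genotype. RMA and the affy package are named per the submitters' processing notes, with settings and versions not given in the sources used here. Values ran from 2.87 to 14.53, with array medians of 5.52 to 5.59. RMA summarises probes on the log2 scale and compresses changes of dim transcripts, and amplification in 2 rounds favours 3' ends. The number of arrays limits the precision.

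Of 45101 probe sets, 34958 had 1 gene in the platform annotation, 932 several and 9211 none listed, and 34754 of the first were found in RefSeq (GRCm38.p6), which updated their symbols. These gave 18194 genes, of which 13447 were tested and 4747 were dim. A single limma 3.58.1 fit (lmFit, eBayes) in R 4.3.3 held all 9 arrays with genotype as the only term. Genes were called at an adjusted p under 0.05 (2-sided, Benjamini-Hochberg, 13447 genes), and intervals are 95% intervals of the fit. The code was tested on simulated data and used version 1.17.8 of the data.table package and matplotlib 3.10.9.

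The members, the gene lists and the rule for the genes named (every member, with values per array for called, inducible core and activator genes, and called genes of the other lists) were chosen with earlier results of these data known. Replicate numbers were not taken as pairs in the main fit. Alternatives covered the filter, probe set, normalization, a floor, the variance model, the samples fitted, a replicate block and leaving out arrays. Probe sets that name several genes were left out.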

Additional observations from a re-analysis of the deposited data

How the results depend on the processing

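In DM against wildtype, between 26 and 34 of the 48 genes were called in every setting run except 2, all of them lower apart from Psme4 after quantile normalization. With the second-brightest probe set of each gene 12 of 23 were called, and without wildtype array 2 and Bmp15-/- array 2 together 19 were. Leaving out each array in turn gave 26 to 34. Of the 32 calls, 13 held in every setting run. Among these, Psmb3, Psmc2, Psmd11 and Psme3 were also called with the second-brightest probe set. The others have a single probe set each, so the settings that vary the probe set could not change their values. In single genes, 2 called changes turned positive and were then not called. These were Psma3 with the second-brightest probe set (0.16, adjusted p = 0.531) and Psmc1 with the mean of all probe sets (0.14, adjusted p = 0.303). With that mean, Psma1 (-0.09), Psma3 (-0.06), Psma6 (-0.09), Psmb8 (-0.25), Psmd2 (-0.16), Psmd13 (-0.17) and Psmg4 (-0.38) stayed negative and lost their calls. Their adjusted p lay between 0.0859 and 0.663. With the second-brightest probe set, Psma1, Psmb1, Psmd7 and Psmd13 stayed negative and lost theirs (adjusted p between 0.0947 and 0.99). In Bmp15-/- against wildtype the count was 3 and became 0 with the second-brightest probe set, 1 with quantile normalization, 6 with an intensity trend, 11 with array weights, 6 with only the 2 groups fitted, and 0 without both arrays richest in oocyte transcripts. Leaving out each array gave 0 to 6, and Psmd7 turned to 0.033 (adjusted p = 0.871) with the second-brightest probe set. In DM against Bmp15-/- the count was 1 and became 0 without the filter on dim genes, 2 with the stricter filter, 3 with the mean of all probe sets, 0 with median centring, 5 with an intensity trend, 0 with only the 2 groups fitted, and 0 without both arrays richest in oocyte transcripts. Leaving out each array gave 0 to 5. Over all genes, quantile normalization lowered the share of calls that were lower to 51.7%, against 64.6% as deposited, in DM against wildtype, and to 46.8%, against 63.7%, in Bmp15-/- against wildtype. The fit with the replicate number as a block called 29 genes in DM against wildtype, 2 in Bmp15-/- against wildtype and 0 in DM against Bmp15-/-. Same-numbered arrays had correlations of their deviations between -0.08 and 0.258, and differently numbered arrays between -0.204 and 0.17. These ranges overlap and do not settle whether same-numbered arrays were paired. The cause of these differences was not tested.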

Other observations

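In DM against wildtype, 6 genes with a Psm symbol that were not called by their brightest probe set had another probe set that was lower in the fit over all probe sets. These were Psma5 (-0.61, adjusted p = 0.00176), Psmc4 (-0.39, adjusted p = 0.0332), Psmc6 (-0.73, adjusted p = 0.00728), Psmd4 (-0.41, adjusted p = 0.023), Psme4 (-0.44, adjusted p = 0.0213) and Psmf1 (-0.42, adjusted p = 0.0248). Psma5 belongs to the alpha ring, Psmc4 and Psmc6 are ATPases of the base and Psmd4 is its ubiquitin receptor. These genes were picked after their values were seen, and 18.1% of all 23735 probe sets of that fit were lower and 8.34% higher. Other sets of Psme4 were higher (1.16, adjusted p = 0.0213) or not called (0.0043, adjusted p = 0.979). A further set of Psmd4 was not called either (0.21, adjusted p = 0.196).

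Among markers of other cell types, 6 immune genes were tested. Of these, H2-Ab1 alone was called in DM against wildtype, at 5.32, 5.28 and 5.13 in DM, 5.98, 5.83 and 5.80 in Bmp15-/- and 6.76, 6.93 and 6.94 in wildtype, and it fell by 1.63 in DM (limma adjusted p = 1.44e-05) and fell by 1.00 in Bmp15-/- (adjusted p = 0.000567). Its partner chain H2-Aa was at 5.62, 5.73 and 5.59 in DM, 4.94, 5.31 and 5.43 in Bmp15-/- and 5.20, 5.43 and 5.11 in wildtype, with every DM array above every wildtype array and a change of 0.40 that was not called (adjusted p = 0.0538). Of the theca and stroma markers 3 of 6 were tested, and they were called in both directions. Pdgfra, a receptor found on stromal cells, was at 9.25, 8.88 and 9.47 in DM, 8.70, 8.46 and 8.51 in Bmp15-/- and 7.43, 8.03 and 7.44 in wildtype and rose 2.96-fold in DM (adjusted p = 0.000503) and 1.90-fold in Bmp15-/- (adjusted p = 0.0197). Pdgfrb was at 7.28, 7.26 and 7.00 in DM, 7.26, 7.00 and 7.10 in Bmp15-/- and 7.62, 7.61 and 7.41 in wildtype and fell by 0.37 in DM (adjusted p = 0.0359) and fell by 0.43 in Bmp15-/- (adjusted p = 0.0451). Col1a1, which encodes a collagen chain, rose 1.46-fold in DM (adjusted p = 0.0257) and was not called in Bmp15-/- (adjusted p = 0.536), while Cyp17a1, Dcn and Lum were below the brightness filter. Alas2, the first enzyme of haem synthesis in red cell precursors, was the only erythroid marker tested, at 5.02, 5.37 and 4.78 in DM, 6.31, 5.63 and 5.04 in Bmp15-/- and 7.28, 8.14 and 7.51 in wildtype, and fell by 2.59 in DM (limma adjusted p = 0.000553) and fell by 1.98 in Bmp15-/- (adjusted p = 0.00746). Hba-a1, which encodes alpha globin, was below the brightness filter. Cdh5 was the only one of 5 endothelial markers tested and was not called in any comparison.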
